A study of Homo sapiens with 3 samples.

Results

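Transcripts of 10 genes of the Notch pathway were followed in T47D cells, a human breast cancer line, across 1 array of vehicle, 1 of estradiol and 1 of tamoxifen. The 10 genes are the receptors NOTCH1, NOTCH2 and NOTCH3, the ligand JAG1, the coactivator MAML2, the transcriptional repressors HES1, HES4, HEY1 and HEY2, and the feedback inhibitor NRARP. Every probe set that the array's annotation gives to 1 gene symbol, and that symbol one of these, was taken, which gave 25 probe sets out of 41097 with a single symbol and 10 genes out of 19775. MAML2 is neither a receptor, a ligand nor a target, and is described here as a component of the nuclear complex. 1 further probe set, 227067_x_at, lists NOTCH2 together with related NOTCH2NL genes and was left out by that rule.

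On these arrays the repressor genes HES1 and HEY2 differed between estradiol and tamoxifen, in opposite directions, while the receptor NOTCH2 was high with both. As the median over its probe sets and relative to all genes, HES1 was 1.84-fold lower on the estradiol array than on the vehicle array and 1.70-fold higher with tamoxifen than with estradiol, in each of its 3 probe sets. HEY2 was 2.46-fold lower on the tamoxifen array than on the estradiol array, in each of its 2 probe sets. NOTCH2 was 1.79-fold higher with estradiol and 1.65-fold higher with tamoxifen than with vehicle, in each of its 4 probe sets, and MAML2 was 2.45-fold higher with tamoxifen than with vehicle. With 1 array per group no difference has a replicate check, and no test between treatments was possible.

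Notch receptors are cell surface proteins that are cut when a ligand on a neighbouring cell, such as JAG1, engages them. The freed intracellular part enters the nucleus, binds the DNA-binding protein RBPJ and, with a coactivator of the Mastermind-like family such as MAML2, switches on target genes, among them those of the HES and HEY repressors and of NRARP. In the mammary gland the pathway takes part in the choice of luminal cell fate, and its activity is studied in breast cancer in relation to estrogen signalling.

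All cells had been kept for 4 h in medium with 10% charcoal-stripped serum, which removes steroids. They were then treated for 3 h with 0.1% ethanol (vehicle), with 1 uM estradiol, the main natural estrogen, or with 1 uM tamoxifen, a selective estrogen receptor modulator. T47D is a single tumour line, so the arrays describe that line, grown here in bulk, where fewer cells of a kind and less RNA per cell cannot be told apart.

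The deposited values were log2 values centred per probe set, so they keep differences between arrays but no signal level. A value of 0 is a reference that no label names, and not the centre of these 3 arrays. The SD over all 54675 probe sets was 0.193 for vehicle, 0.405 for estradiol and 0.445 for tamoxifen, so that vehicle values lay nearest to 0. A deposited value below is one array's reading of a probe set. A difference below is the log2 difference between 2 arrays after subtraction of the median difference over all genes, which was -0.0057 (estradiol minus vehicle), 0.10 (tamoxifen minus vehicle) or 0.11 (tamoxifen minus estradiol). A gene's value is the median over its probe sets, and its fold is computed from it, on the assumption that the logarithm is to base 2, as the RMA method uses. The SD between the probe sets of a gene had a median over 10523 genes of 0.289, 0.326 and 0.198 in the 3 comparisons. It is the only spread at hand, is read from the same 2 arrays and holds no variation between repeat arrays. A difference larger than this SD still has no replicate. Control probe sets, compared as deposited without subtraction of the all-gene median, moved with the vehicle array. On that scale 18S ribosomal RNA read 1.86 and 1.96 higher with estradiol and tamoxifen, and polyadenylated spikes 0.70 and 0.49 higher. ACTB, read at its 3' end minus its 5' end, differed by -0.78 and -0.77. Between the treated arrays these values, again as deposited, were 0.043, -0.15 and 0.0058. Their part in the differences from vehicle was not tested. Luminal markers of the line (9 genes, such as keratins and ESR1) could not be checked for presence without levels, and their differences ranged from -0.21 to 1.48 for estradiol and from -0.18 to 1.07 for tamoxifen against vehicle, and from -0.41 to 0.24 between the treatments. Markers of fibroblasts, endothelium and leukocytes (8, 5 and 3 measured genes) ranged over -0.97 to 0.84, 0.059 to 0.29 and -0.45 to 0.25 with estradiol against vehicle, and over -0.88 to 0.75, -0.16 to 0.24 and -0.20 to 0.41 with tamoxifen. Between tamoxifen and estradiol the same lists ranged over -0.43 to 0.18, -0.46 to 0.12 and 0.15 to 0.35, with all 3 leukocyte genes above 0. Their part in the results was not tested.

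**Figure D1:**
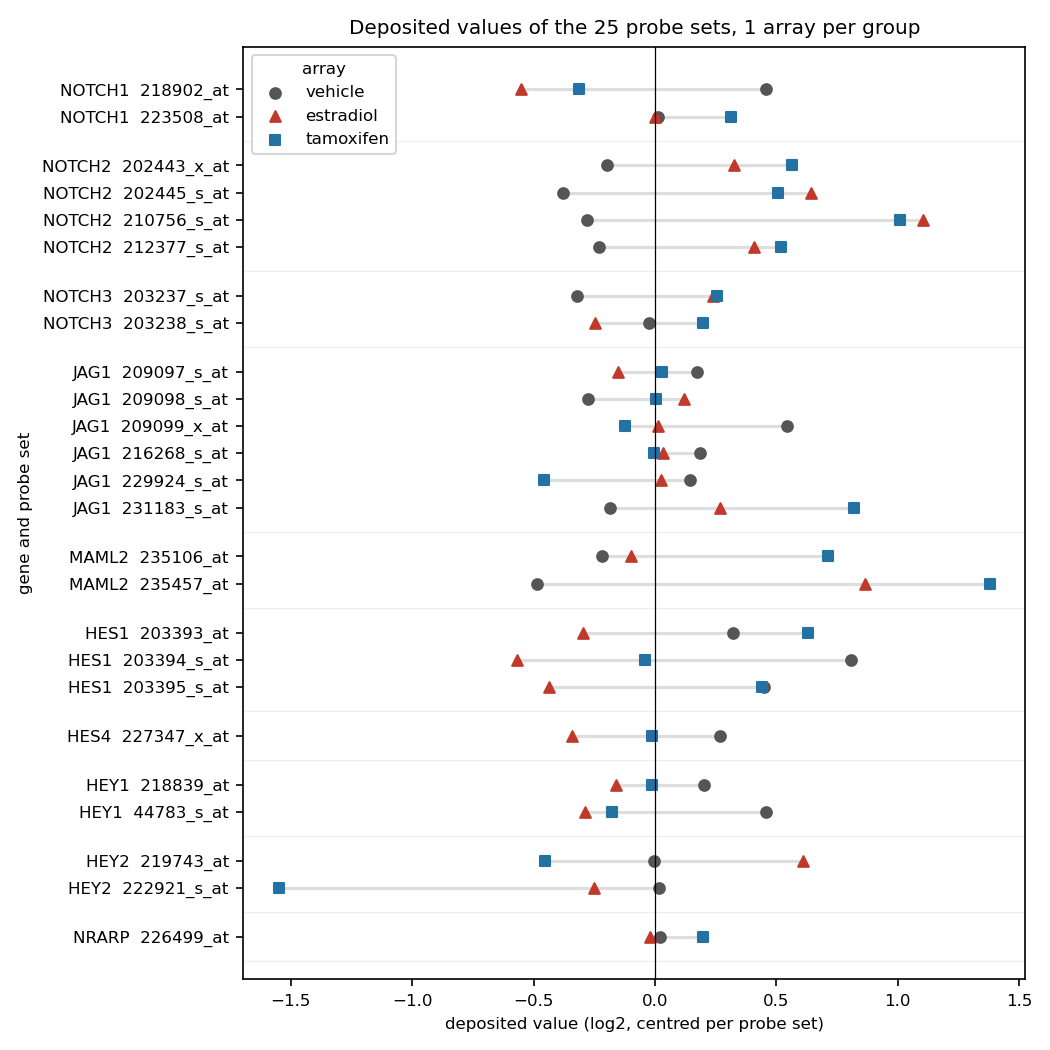
Deposited value (x axis, log2, centred per probe set) of each of the 25 probe sets (y axis, grouped by gene) on the vehicle (circle), estradiol (triangle) and tamoxifen (square) arrays; a grey line joins the lowest and highest array. The vehicle array is lowest in all 4 NOTCH2 probe sets, the estradiol array in all 3 HES1 probe sets and the tamoxifen array in both HEY2 probe sets.

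Among the receptors, NOTCH2 gave the same picture in all of its probe sets. Probe set 202443_x_at had deposited values of -0.20 on the vehicle array, 0.33 with estradiol and 0.57 with tamoxifen. Probe set 202445_s_at read -0.38, 0.64 and 0.51 on the same arrays. Probe set 210756_s_at read -0.28, 1.10 and 1.01. Vehicle was thus low and both treated arrays high, with the treated arrays close to each other. Probe set 212377_s_at read -0.23, 0.41 and 0.52, in the same order of vehicle against the treated arrays. The differences of estradiol from vehicle ran from 0.53 to 1.39 over the 4 probe sets (SD 0.39), with a gene value of 0.84. Those of tamoxifen from vehicle ran from 0.65 to 1.19 (SD 0.25), with a gene value of 0.72. Of 1393 genes with 4 probe sets, 28.4% had all 4 on 1 side of 0 in the first comparison and 20.7% in the second. Between tamoxifen and estradiol the NOTCH2 value was -0.11 (SD 0.18), whose sign rests on the subtraction, since it was 0.0085 as deposited. All 4 probe sets have the suffix _s_at or _x_at, which marks probes that can match more than 1 transcript. The left-out probe set 227067_x_at, shared with the NOTCH2NL genes, read -0.086 on the vehicle array, -0.27 with estradiol and -0.11 with tamoxifen, which gives differences from vehicle of -0.18 and -0.13, without the height seen in NOTCH2.

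NOTCH1, the receptor best known from leukaemia, was read differently by its 2 probe sets. Probe set 218902_at had deposited values of 0.46 with vehicle, -0.55 with estradiol and -0.31 with tamoxifen, so that vehicle was high and both treatments low. Probe set 223508_at read 0.014, -0.00033 and 0.31, with vehicle and estradiol at the same height and tamoxifen above. The estradiol minus vehicle differences were -1.0 and -0.0086, a range of 0.996 where genes with 2 probe sets had a median range of 0.327, and the gene value of -0.51 (SD 0.70) is their midpoint. For tamoxifen minus vehicle the probe sets were of opposite sign, at -0.88 and 0.20. Between tamoxifen and estradiol they were close, at 0.12 and 0.20.

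NOTCH3, a receptor that also acts in vascular smooth muscle, differed little. Probe set 203237_s_at had deposited values of -0.32 with vehicle, 0.24 with estradiol and 0.26 with tamoxifen. Probe set 203238_s_at read -0.024, -0.25 and 0.20, so estradiol was on the high side in 1 probe set and the lowest array in the other. Against vehicle the gene value was 0.17 (SD 0.55) with estradiol and 0.30 (SD 0.25) with tamoxifen, and between the treatments it was 0.12 (SD 0.30), of which 2 are smaller than the SD between the probe sets.

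The ligand JAG1 was represented by 6 probe sets, all with the suffix _s_at or _x_at, and these did not share a direction. Vehicle was the highest array in 4 of them and the lowest in the other two. Probe set 209099_x_at had deposited values of 0.55 with vehicle, 0.013 with estradiol and -0.12 with tamoxifen. Probe set 231183_s_at ran the other way, with -0.19, 0.27 and 0.82. Probe set 229924_s_at read 0.14, 0.025 and -0.46, low only on the tamoxifen array. Over the 6 probe sets the difference of estradiol from vehicle lay between -0.53 and 0.46 with a gene value of -0.13 (SD 0.39). The difference of tamoxifen from vehicle lay between -0.77 and 0.90 with a gene value of -0.27 (SD 0.62). Its range of 1.67 compares with a median range of 1.12 for the 328 genes with 6 probe sets, so no direction of JAG1 stood out from the disagreement of its probe sets.

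MAML2, which bridges the Notch and RBPJ complex to histone acetyltransferases, was highest on the tamoxifen array in both of its probe sets. Probe set 235106_at had deposited values of -0.22 with vehicle, -0.10 with estradiol and 0.71 with tamoxifen. Probe set 235457_at read -0.48, 0.87 and 1.38. The first separates tamoxifen from the other arrays, and the second separates vehicle from both treated arrays. Tamoxifen minus vehicle was 0.83 and 1.76 (gene value 1.29, SD 0.66, rank 129 from the top among 19775 genes). Estradiol minus vehicle was 0.13 and 1.35 (gene value 0.74, SD 0.87), so the estradiol value rests on 1 probe set. Tamoxifen minus estradiol was 0.70 and 0.40 (gene value 0.55, SD 0.21, rank 233 from the top).

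MAML2 lay farthest from 0 of the members over both differences from vehicle, which share the vehicle array. The 3 genes with at least 2 probe sets nearest to it over these 2 differences were PRKCI (protein kinase C iota, 0.74 and 1.32), NOL4 (0.80 and 1.28) and FAM114A1 (0.78 and 1.25), at distances of 0.027, 0.058 and 0.059. The likeness is over 3 arrays among 10515 candidate genes, and the PRKCI probe sets ranged from 0.21 to 2.80 with estradiol. Tamoxifen minus estradiol, taken as the median over probe sets in its own right, was -0.12 for PRKCI, 0.48 for NOL4 and 0.47 for FAM114A1 against 0.55 for MAML2, so PRKCI did not share the sign of MAML2 there.

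The HES and HEY genes encode basic helix-loop-helix repressors that are direct targets of the Notch and RBPJ complex. Promoters of HES1, HES4 and HEY2, the repressors with a matched sequence, are shown because RBPJ recognises a short sequence. Tamoxifen minus estradiol was 0.76, 0.22 and -1.30 for these genes, so the display follows neither the size nor the direction of that difference. RefSeq promoter sequences (GRCh38.p14, 250 bases before to 50 after the gene start) were matched for 9 of the 10 members, HEY1 not being used here. Each sequence below runs from 250 bases before the gene start to 10 bases after it, 5′ to 3′ on the gene's strand, with the RBPJ core TGGGAA, or its reverse complement TTCCCA, in capitals. HES1 lies at chr3:194135898-194136157 (+ strand), HES4 at chr1:1000088-1000347 (- strand) and HEY2 at chr6:125749382-125749641 (+ strand).
HES1: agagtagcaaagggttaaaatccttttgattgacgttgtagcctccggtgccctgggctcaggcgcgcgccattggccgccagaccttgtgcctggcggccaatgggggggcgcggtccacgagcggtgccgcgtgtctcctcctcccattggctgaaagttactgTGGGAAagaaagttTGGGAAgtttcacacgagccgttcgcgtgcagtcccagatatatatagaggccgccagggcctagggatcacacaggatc
HES4: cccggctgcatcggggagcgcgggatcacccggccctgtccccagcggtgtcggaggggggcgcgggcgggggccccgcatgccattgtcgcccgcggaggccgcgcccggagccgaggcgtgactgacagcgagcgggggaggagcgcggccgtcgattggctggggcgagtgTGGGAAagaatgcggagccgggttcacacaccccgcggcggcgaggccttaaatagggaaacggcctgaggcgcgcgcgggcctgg
HEY2: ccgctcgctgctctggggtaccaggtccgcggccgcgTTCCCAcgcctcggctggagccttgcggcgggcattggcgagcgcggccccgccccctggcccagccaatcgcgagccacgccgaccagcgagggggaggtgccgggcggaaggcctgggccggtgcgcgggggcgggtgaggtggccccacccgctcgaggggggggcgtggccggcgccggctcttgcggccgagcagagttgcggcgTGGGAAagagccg
The core began 84 and 70 bases before the HES1 start, both on the gene's strand. In HES4 it began 76 bases before the start. In HEY2 it lay on the opposite strand at 213 bases and across the start itself, beginning 3 bases before it.

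Searched on both strands over the full 300 bases, the core TGGGAA was found in these 3 of the 9 member promoters and in 24.0% of 35093 promoters. The longer form GTGGGAA, which contains the core, was found in the same 3 and in 6.25% of all promoters. The longest run around the core that the 3 promoters share, the 10 bases GTGGGAAAGA, was chosen after the sequences were seen and contains both; it occurred once in each of HES1, HES4 and HEY2 and in 56 of 35093 promoters (0.16%). The receptor, ligand, MAML2 and NRARP windows held no TGGGAA. The N box CACNAG, a sequence bound by HES repressors, was found in 6 of 9 windows (NOTCH1, NOTCH2, NOTCH3, MAML2, HES1 and NRARP) and in 38.0% of all. The full estrogen response element GGTCANNNTGACC was found in 0 of 9 and in 0.057% of all, its single arm GGTCA in 1 of 9 (NOTCH2) and in 37.4% of all, and the AP-1 sequence TGANTCA in 0 of 9 and in 7.71% of all. A match is a description of the letters and not of binding, and the windows hold no distal elements.

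HES1, the repressor most often used as a readout of Notch activity, was lowest on the estradiol array in all 3 probe sets. Probe set 203393_at had deposited values of 0.32 with vehicle, -0.30 with estradiol and 0.63 with tamoxifen. Probe set 203394_s_at read 0.81, -0.57 and -0.040. Probe set 203395_s_at read 0.45, -0.44 and 0.44. Estradiol was thus low throughout, while tamoxifen was above vehicle in the first, well below it in the second and at its height in the third. Estradiol minus vehicle was -0.61, -1.37 and -0.88 (gene value -0.88, SD 0.38), which ranked 571 from the bottom among all genes. Tamoxifen minus estradiol was 0.81, 0.42 and 0.76 (gene value 0.76, SD 0.22), which ranked 43 from the top, and 29.1% of the 2778 genes with 3 probe sets had all 3 on 1 side of 0 in that comparison. Tamoxifen minus vehicle was 0.20, -0.95 and -0.11 (gene value -0.11, SD 0.60), smaller than the SD between the probe sets, and positive (0.20) without _s_at and _x_at probe sets.

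HES4 and HEY1 read lower on both treated arrays. The single HES4 probe set, 227347_x_at, had deposited values of 0.27 with vehicle, -0.34 with estradiol and -0.0099 with tamoxifen. Against vehicle it differed by -0.60 with estradiol and by -0.38 with tamoxifen, and tamoxifen minus estradiol was 0.22. HEY1 probe set 218839_at had deposited values of 0.20, -0.16 and -0.011, and 44783_s_at read 0.46, -0.29 and -0.18. Vehicle was the highest array in all 3 of these probe sets, and estradiol the lowest. The HEY1 gene values were -0.55 (SD 0.27) with estradiol and -0.53 (SD 0.29) with tamoxifen against vehicle, in 2 of 2 probe sets each. Between the treated arrays HEY1 differed by 0.017, with probe sets at 0.035 and -0.0012.

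HEY2, a repressor known from heart and vessel development, was lowest on the tamoxifen array. Probe set 219743_at had deposited values of -0.0026 with vehicle, 0.61 with estradiol and -0.45 with tamoxifen. Probe set 222921_s_at read 0.016, -0.25 and -1.55. Estradiol was above vehicle in the first and below it in the second, whereas tamoxifen was below both other arrays in each. Tamoxifen minus estradiol was -1.18 and -1.41 (gene value -1.30, SD 0.17), which ranked 14 from the bottom among 19775 genes. Both probe sets were past 2-fold on the same side, as in 3, HEY2 included, of the 5015 genes with 2 probe sets in that comparison (0.0598%). Tamoxifen minus vehicle was -0.55 and -1.67 (gene value -1.11, SD 0.79) and was -0.56 without _s_at and _x_at probe sets. Estradiol minus vehicle was 0.62 and -0.26 (gene value 0.18, SD 0.62), smaller than the SD between the probe sets.

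NRARP, an ankyrin repeat protein that is induced by Notch and limits its nuclear complex, showed the smallest differences from vehicle of the 10 genes. Its probe set 226499_at had deposited values of 0.022 with vehicle, -0.020 with estradiol and 0.20 with tamoxifen. The differences were -0.036, 0.071 and 0.10 in the 3 comparisons, so all arrays read NRARP at about the same height once the all-gene median was subtracted.

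**Figure D2:**
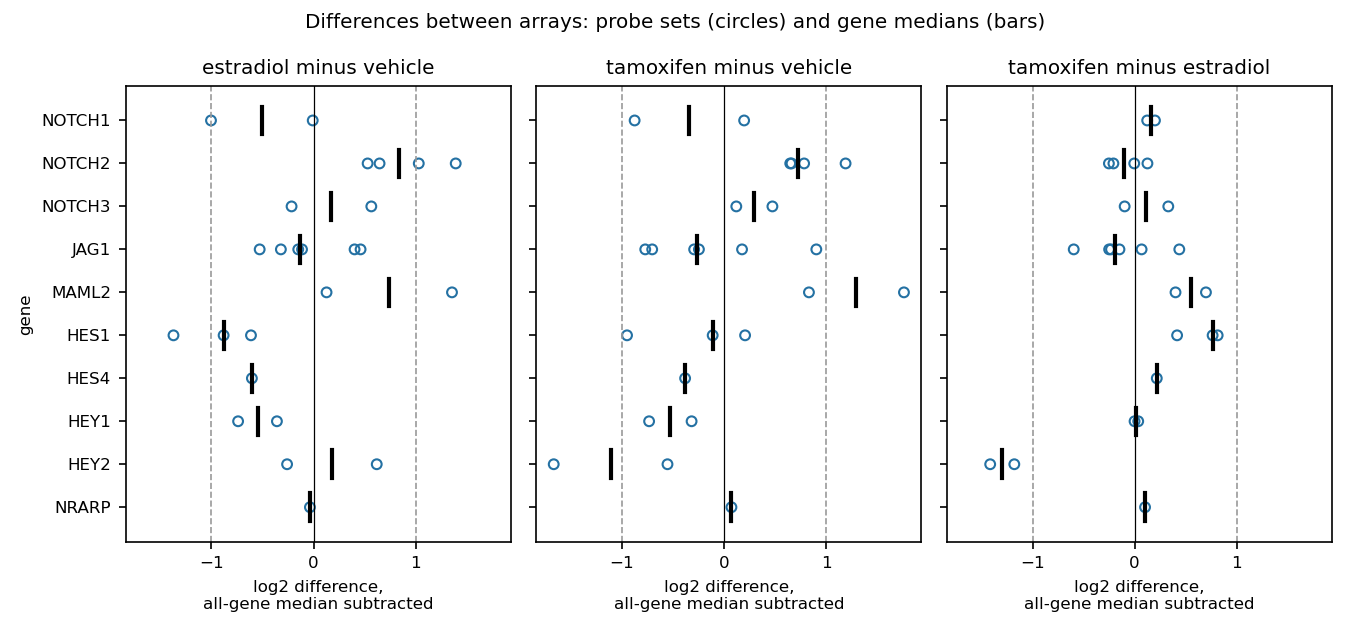
Log2 differences between arrays, all-gene median subtracted (x axis), of each probe set (circles) and the gene median (bar) for the 10 genes (y axis) in the 3 comparisons; dashed lines mark 2-fold. HES1 and HEY2 lie at 0.76 and -1.30 for tamoxifen minus estradiol, and the JAG1 and NOTCH1 probe sets spread over both sides of 0 for tamoxifen minus vehicle.

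The members were then counted per comparison against all genes, with 2-fold (a difference of at least 1 in size) as the threshold. With estradiol against vehicle, 0 of 10 genes were past 2-fold, where 3.31% of all genes were. Of the 25 probe sets, 5 were past it, against 6.23% of all single-symbol probe sets. These were 3 higher (2 of NOTCH2 and 1 of MAML2; 3.9% of all probe sets) and 2 lower (1 of NOTCH1 and 1 of HES1; 2.33% of all). The member genes had a median of -0.084, with 4 genes above 0 and 6 below, 0 being the median of all genes.

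With tamoxifen against vehicle, 2 of 10 genes were past 2-fold, where 3.43% of all genes were. MAML2 was on the higher side (1.65% of all genes) and HEY2 on the lower (1.79% of all). Without _s_at and _x_at probe sets 1 of 6 genes was, since HEY2 then stood at -0.56. The share of all genes was not recomputed for that subset. At the level of probe sets 3 of 25 were past it, against 6.92% of all. These were 1 of NOTCH2 and 1 of MAML2 on the higher side (4.29% of all) and 1 of HEY2 on the lower (2.62% of all). The member genes had a median of -0.19, with 4 above and 6 below 0.

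Between tamoxifen and estradiol, the comparison without the vehicle array, 1 of 10 genes was past 2-fold, where 0.228% of all genes were. It was HEY2, on the lower side (0.202% of all genes). In probe sets this was 2 of 25, both of HEY2 and both lower, against 0.457% of all in either direction and 0.324% of all on the lower side. The member genes had a median of 0.11, with 7 above and 3 below 0.

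By role, the 8 probe sets of the 4 repressors had vehicle as the highest array in 6, estradiol as the lowest in 6 and tamoxifen as the lowest in 2, after all-gene centring. For this order each treated array was centred by its median difference from vehicle. In HEY1 probe set 44783_s_at the treated arrays were then nearly level. Its tamoxifen minus estradiol difference of -0.0012 would place tamoxifen lowest there instead. Over all 41097 single-symbol probe sets vehicle was the highest in 38.1%, estradiol the lowest in 28.6% and tamoxifen the lowest in 30.5%. The 8 receptor probe sets had vehicle as the lowest array in 5, of which 4 were those of NOTCH2, and vehicle was the lowest in 40.9% of all. Probe sets of 1 gene share its transcript and are not independent.

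**Figure D3:**
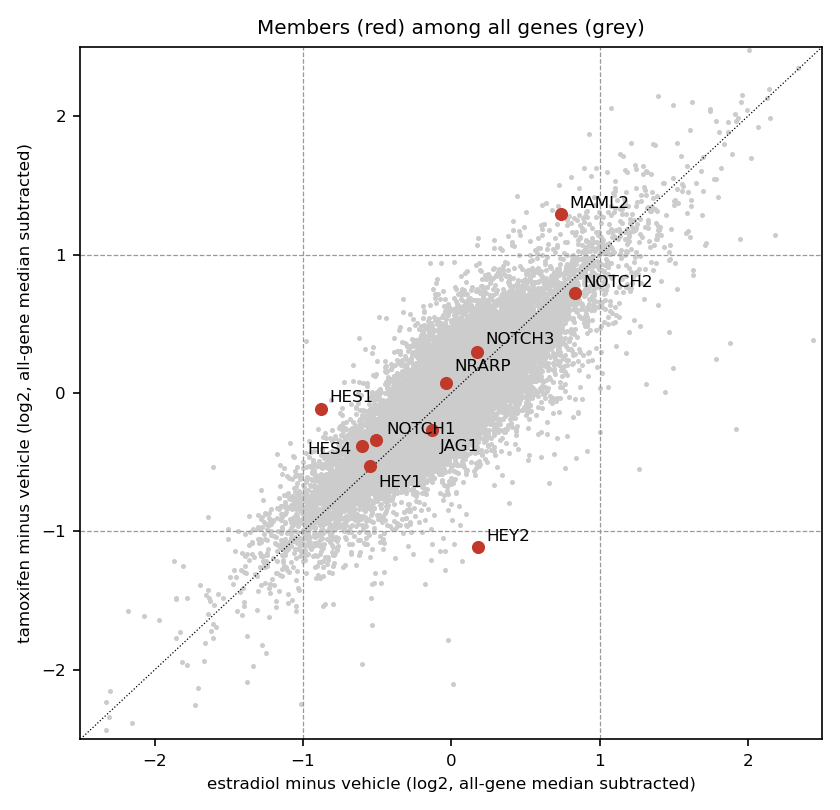
Gene values of estradiol minus vehicle (x axis) against tamoxifen minus vehicle (y axis), log2 with the all-gene median subtracted, for the 10 members (red) and all other genes (grey; 11 genes lie beyond 2.5 on an axis and are not drawn); dashed lines mark 2-fold and the dotted line equal values. The axes share the vehicle array, which by itself draws points along the dotted line; HES1 (-0.88 and -0.11), HEY2 (0.18 and -1.11) and MAML2 (0.74 and 1.29) lie off it, and NOTCH2 (0.84 and 0.72) and HEY1 (-0.55 and -0.53) close to it.

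Of the rest of the pathway, 49 of 52 listed genes were measured. With estradiol against vehicle, 1 of 49 (2.04%) was past 2-fold, where 3.31% of all genes were. It was the lower DTX2, which encodes a Deltex ubiquitin ligase and had 1 probe set (-1.04), with the suffix _s_at or _x_at. Tamoxifen against vehicle gave 0 of 49, with DTX2 at -0.59, where 3.43% of all genes were past it. Tamoxifen against estradiol gave 0 of 49, where 0.228% of all genes were past it. With 49 genes, counts this low do not set the list apart from all genes. The medians over the 49 genes were -0.099, -0.14 and 0.0093. RBPJ itself, the DNA-binding partner of the cut receptors, stood at -0.099, -0.18 and -0.0037 over 3 probe sets.

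Among the other receptor and ligands (NOTCH4, JAG2, DLL1, DLL3 and DLL4), values ran from -0.57 to -0.0047 with estradiol and from -0.39 to 0.13 with tamoxifen against vehicle. The 7 measured genes of receptor cleavage, which encode ADAM proteases and gamma-secretase subunits, ran from -0.44 to 0.90 and from -0.54 to 0.71, and ADAM10 was the top of both ranges. The 3 ADAM10 probe sets spread from 0.26 to 2.43 with estradiol. The 5 genes of receptor glycosylation ran from -0.85 to 0.20 and from -0.84 to 0.11, with RFNG, a Fringe glycosyltransferase, at the bottom of both. The 12 genes of endocytosis and ubiquitin ligation ran from -1.04 to 0.74 and from -0.59 to 0.59, and the 13 nuclear factors from -0.40 to 0.41 and from -0.29 to 0.34. The 7 genes listed with the HES and HEY family ran from -0.55 to 0.12 with estradiol and from -0.61 to 0.30 with tamoxifen. That list also holds BHLHE40 and BHLHE41, which are related genes but neither HES nor HEY genes. BHLHE40 (0.30) was the top of the tamoxifen range and HES7 (-0.61, 1 probe set) its bottom. HES7 also stood at -0.61 for tamoxifen minus estradiol, where 4 of the 7 genes were above 0 and 3 below. Between tamoxifen and estradiol the 49 genes lay between -0.61 and 0.45, so the members HES1 (0.76), MAML2 (0.55) and HEY2 (-1.30) were outside that span. Members and lists were chosen with earlier results of these data known, so the choice itself could have made this contrast. It is a description only.

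**Figure D4:**
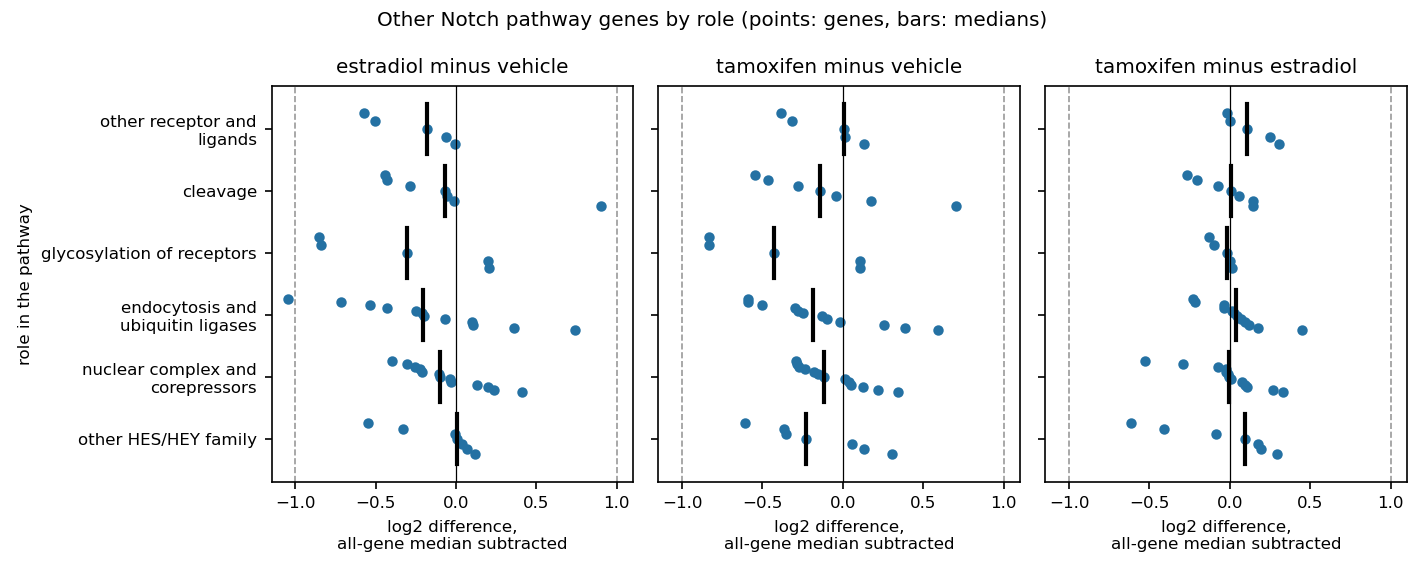
Gene values (x axis, log2 difference with the all-gene median subtracted) of the 49 other measured Notch pathway genes (points) by role (y axis), with the median of each role as a bar and dashed lines at 2-fold, in the 3 comparisons. The single point past 2-fold is DTX2 at -1.04 with estradiol against vehicle, and the points of tamoxifen minus estradiol lie between -0.61 and 0.45.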

How the data were processed

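RNA of T47D cells was measured on Affymetrix arrays, 1 per group, with groups taken from the treatment in the labels. The deposited values are log2 values made by the authors with RMA, per the submitters' processing notes, with the version not given in the sources used here. Since they lie on both sides of 0, each probe set must have been centred, a step no label records. The reference was neither the mean nor the median of these 3 arrays, since MAML2 probe set 235457_at read -0.48, 0.87 and 1.38. Gene symbols were read from an annotation table of the array (41097 probe sets with 1 symbol, 1801 with several, 11777 unnamed here). The Entrez identifiers of all 25 member probe sets were matched in a GRCh38.p14 gene table, and 0 symbols changed.

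Differences were taken per probe set, the median over probe sets gave gene values, and the median over all 19775 genes was subtracted (Python 3.11.15, pandas 2.3.3, numpy 2.4.6). No test or level filter could be used, and the number of arrays limits the precision. Alternatives were no subtraction, a 1.5-fold threshold, leaving out _s_at and _x_at probe sets, means over probe sets and a reference median over all probe sets. Named were all members and their probe sets, RBPJ, pathway genes past 2-fold and the 3 genes nearest to the member farthest from 0; other pathway genes and probe sets named as ends of a range were chosen after their values were seen. The members, lists and thresholds were chosen with earlier results of these data known. The calculation was tested on simulated data with planted shifts larger than the threshold and alike in all probe sets of a gene. The noise was scaled down from that of these arrays. The simulation therefore checks the arithmetic and not the reliability of the values.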

Additional observations from a re-analysis of the deposited data

How the results depend on the processing

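None of the member gene values past 2-fold (MAML2 and HEY2) changed sign under the alternatives that gave them a value, and of the recomputed counts and medians 40 stayed, and 14 did not stay, within 1.5 times the count or within the SD between probe sets. With a 1.5-fold threshold, 4, 3 and 2 of 10 member genes were past it for estradiol minus vehicle, tamoxifen minus vehicle and tamoxifen minus estradiol, as were 11, 13 and 6 of 25 probe sets and 6, 7 and 1 of 49 other pathway genes. Without _s_at and _x_at probe sets, 8 probe sets of 6 members were left, NOTCH2, NOTCH3, JAG1 and HES4 had no value, 2, 1 and 1 probe sets were past 2-fold, 1 member gene was for tamoxifen minus vehicle and 0 of 39 pathway genes were for estradiol minus vehicle, since DTX2 was not among them. With means over probe sets, 2 pathway genes were past it for estradiol minus vehicle. Without subtraction of the all-gene median 4 member probe sets were past 2-fold for tamoxifen minus vehicle, in place of 3. Shares of all genes and probe sets past 2-fold were not recomputed under these alternatives, and shares past 1.5-fold were not computed. The counts at 1.5-fold therefore have no share to be set against. The same holds for the counts without _s_at and _x_at probe sets, with means or without subtraction. None of these counts shows whether the members or the other pathway genes stood apart from all genes. HEY2 moved to 0.61 for estradiol and -0.56 for tamoxifen against vehicle without _s_at and _x_at probe sets. No paired analysis was possible because each group had 1 array. Centred values do not show which probe sets were dim, and RMA shrinks differences of dim probe sets.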
